A study of Mus musculus with 8 samples.

Results

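Bone marrow plasma cells of C57BL/6 mice that lack Blimp1 (labelled Blimp1-/-, here Blimp1KO) were compared with wild-type plasma cells (WT) of the same batch. The comparison uses the 2 Blimp1KO libraries and the 2 WT libraries labelled batch 1, which are 4 of the 8 RNA-seq libraries in the series, and it was chosen by these labels. The other 4 libraries, from WT and Xbp1-/- plasma cells (Xbp1KO) of batch 2, entered the fit only to estimate the spread between libraries and to set the effect of Blimp1 beside that of Xbp1. Cells of every library were sorted from bone marrow as positive for a Blimp1-GFP reporter and for surface CD138, the proteoglycan Syndecan-1. The design text calls the replicates biological. Age, sex, the exons deleted, the Cre line, the time since deletion and the number of mice per library are not given in the sources used here. A knockout cell entered the data only if it was still GFP positive and CD138 positive.

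Blimp1 is a zinc finger repressor encoded by Prdm1 that turns off genes of the mature B cell while a B cell becomes a plasma cell. Plasma cells secrete antibody at a high rate, which needs abundant immunoglobulin mRNA, a large endoplasmic reticulum (ER) and the unfolded protein response, in which the transcription factor Xbp1 raises genes of folding and transport. Mature B cells by contrast present antigen on MHC class II molecules, whose genes are driven by Ciita, and migrate between blood and lymphoid organs under the control of chemokine and sphingosine phosphate receptors.

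Expression is given as CPM, each gene's count relative to the library total, with library totals scaled by TMM (trimmed mean of M values). Changes are log2 fold changes of Blimp1KO against WT of batch 1 with their standard errors. A gene is said to have risen or fallen where edgeR's quasi-likelihood test gave a Benjamini-Hochberg adjusted p below 0.05 over all 15073 genes tested. A gene is called kept where the 95% interval of its log2 fold change lay between -1 and 1, so that a change of 2-fold or more lay outside the interval. A p above the threshold alone was not read as a sign of no change.

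The libraries held 78256710 and 78931952 assigned reads in WT and 69235049 and 78475368 in Blimp1KO. Immunoglobulin genes took 75.7% and 75.6% of the WT reads against 55.4% and 58.4% of the Blimp1KO reads, which differ by -18.8 points. Both Blimp1KO libraries lay below both WT libraries, and the exact 2-sided permutation test gave p = 0.33, the smallest p that 2 against 2 libraries allow. The reads left for all other genes were 18981149 and 19228617 in WT against 30858743 and 32682237 in Blimp1KO. The scaling therefore decides where 0 lies. With immunoglobulin genes included, the TMM factors were 0.564 and 0.603 in WT against 1.06 and 0.965 in Blimp1KO. With these genes taken out before scaling, the factors were 0.934 and 0.987 against 0.949 and 0.894, and the fold changes of the 14515 other genes tested in both moved by a median of 0.03 on the log2 scale. None of them moved by more than 0.1. The numbers that rose and fell were then 127 and 46 in place of 87 and 43, and all 126 genes called with immunoglobulin genes in the fit that could be tested again passed again with the same sign. Library totals without a scaling factor moved fold changes up by a median of 0.79, to a median of 0.78 over all genes, so each direction below is relative to the bulk of genes and not per cell. In bulk samples, fewer cells of a type and less RNA per cell cannot be told apart.

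**Figure D1:**
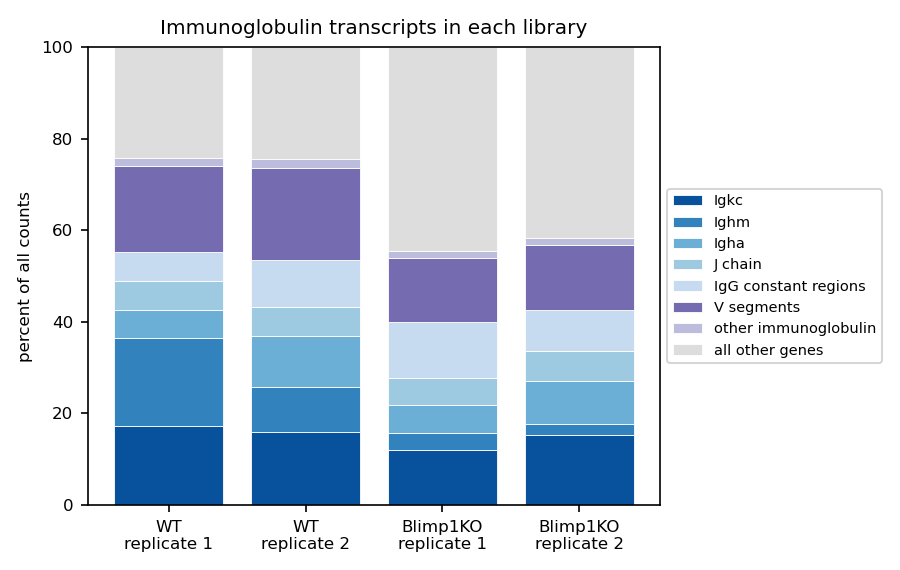
Composition of all assigned reads in each batch 1 library, as stacked bars from 0 in percent with 1 bar per library. The segments are Igkc (the kappa constant region), Ighm, Igha, the J chain, IgG constant regions, V segments, other immunoglobulin and all other genes. The immunoglobulin segments together reach 75.7% and 75.6% in the WT libraries and 55.4% and 58.4% in the Blimp1KO libraries.

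Blimp1KO replicate 2 stood apart from replicate 1 by gene length. Among abundant genes outside the immunoglobulin loci (average log2 CPM of at least 3), the median log2 difference of replicate 2 minus replicate 1 was 0.73 over the 580 genes shorter than 1000 bases and -0.77 over the 919 genes of 6000 bases or longer. The WT libraries differed from each other by -0.02 and -0.03 in the same classes. The mean of the 2 Blimp1KO libraries against WT moved less, from 0.18 in the shortest class to -0.05 in the longest. Whether RNA quality or library preparation produced the trend was not tested. After the data were seen, a fit was added in which the trend with length was removed from each library by an offset, and its number of called members is given for the lists described below where it differed by 2 or more. Genes named from that fit were chosen after their values were seen.

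Of the 15073 genes, 130 (0.862%) passed the test, of which 87 (0.577%) rose and 43 (0.285%) fell. The genes that rose had a median log2 fold change of 1.90 and the genes that fell one of -1.56. For all 130, the Blimp1KO and WT libraries did not overlap. Since the test used these same libraries, this follows largely from the selection and adds no support. The same holds wherever called genes are said below not to overlap. Over all genes, both Blimp1KO libraries were higher in 20.9% and both lower in 22.1%. In contrast, 7028 genes (46.6%) were kept within 2-fold, and among the 7477 abundant genes the kept share was 73.3%. With the length trend removed, 313 genes rose (2.08%) and 235 fell (1.56%), 3.64% in all, which included 129 of the 130. The calls rest on every WT library: without either WT library of batch 1 no gene passed edgeR's test, with 1160 and 1064 genes at an unadjusted p below 0.05 against 2093 with all libraries. Without either WT library of batch 2 the genes left were Rdh12, Gimap3 and Dnase1l3. In a fit of the 4 batch 1 libraries alone, 20 genes rose and none fell, with 1700 at an unadjusted p below 0.05, and 10 of the 20 were among the 130, so none of the 43 falls passed there. Every one of the 130 kept its sign in all of these fits.

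**Figure D2:**
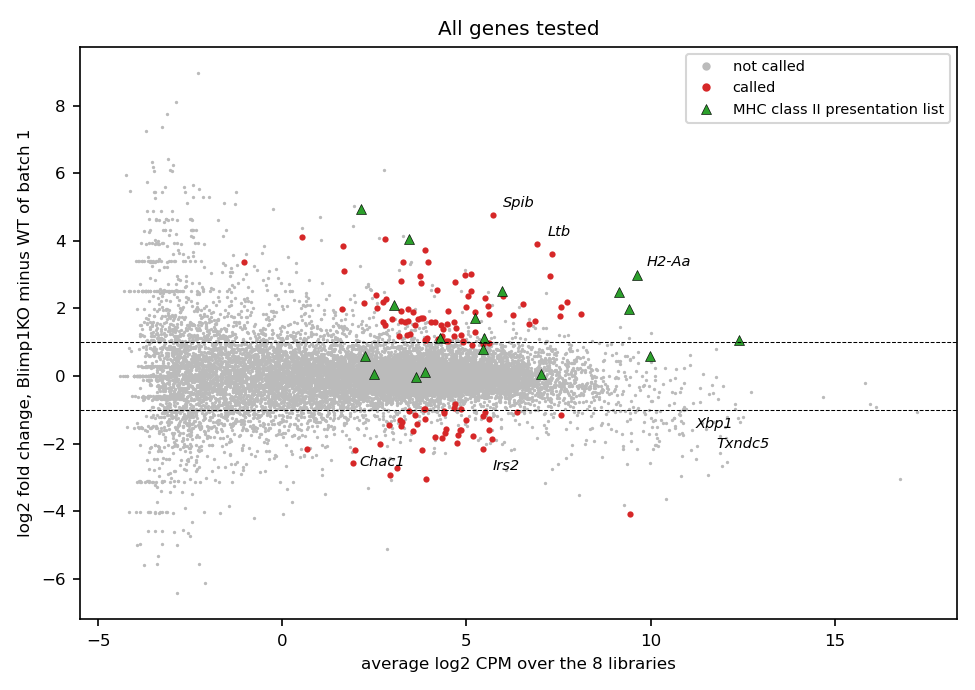
Log2 fold change of Blimp1KO against WT of batch 1 for every gene tested against its average log2 CPM over the 8 libraries, with dashed lines at 2-fold. Most abundant genes lie between the dashed lines, and the MHC class II list (triangles) reaches up to 4.93, the value of H2-Oa.

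Called members of each list below stand against 0.577% of all genes that rose and 0.285% that fell. With the length trend removed, these shares were 2.08% and 1.56%. Where a list had no called member, the number at an unadjusted p below 0.05 (13.9% of all genes) and the number called by DESeq2 stand beside it. Over all genes, DESeq2 called 813 of 23678. In those lists limma-voom called 1 gene, of the immunoglobulin constant regions, and limma on the deposited log2 FPKM called at most 3 per list.

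The targeted gene itself, Prdm1 (Entrez 12142, chromosome 10, 44437174 to 44528558 in GRCm38.p6), stood at 301 and 306 CPM in WT and 243 and 176 CPM in Blimp1KO. Both Blimp1KO libraries were lower, by a log2 fold change of -0.54 ± 0.25 with an adjusted p of 0.401. Since the deleted exons are not given and the counts are per gene, this value does not check the labels. Sdc1, which encodes the CD138 used in the sort, stood at 584 and 540.3 CPM against 376 and 408 CPM, and Xbp1 at 3005 and 3008 CPM against 1371 and 1671 CPM. Irf4, Tnfrsf17 (the receptor BCMA), Mzb1 (a chaperone of antibody assembly) and Slamf7, further markers of plasma cells, lay between 105.2 CPM (Tnfrsf17 in Blimp1KO replicate 1) and 1809 CPM (Mzb1 in Blimp1KO replicate 2), so every batch 1 library carried these markers of the labelled cell type. Xbp1 was -0.98 ± 0.25 on the log2 scale with an adjusted p of 0.141, and -1.003 with an adjusted p of 0.0483 once the length trend was removed.

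MHC class II antigen presentation had more called members than any other list, a description since the lists were chosen with earlier results of these data known. Of the 18 members of this list that were tested, 7 rose (0.577% of all genes) and none fell. The median log2 fold change was 1.12 against -0.01 over all genes. Both Blimp1KO libraries lay above both WT libraries in 14 of 18, against 20.9% of all genes. Windows from the promoters of 5 of the 7 are shown, those with the letters of the Y box within 100 bases of the start, the element bound by NF-Y beside the X box of class II promoters. The windows are from the RefSeq promoter table of GRCm38.p6, run 5′ to 3′ on the gene's strand, and carry the Y box core GATTGG in capitals.
H2-Aa, chr17:34287853-34287932, minus strand: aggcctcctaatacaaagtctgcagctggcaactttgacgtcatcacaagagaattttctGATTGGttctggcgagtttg
H2-Eb1, chr17:34305747-34305826, plus strand: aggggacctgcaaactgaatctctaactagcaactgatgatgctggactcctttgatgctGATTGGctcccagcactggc
H2-Oa, chr17:34092275-34092354, plus strand: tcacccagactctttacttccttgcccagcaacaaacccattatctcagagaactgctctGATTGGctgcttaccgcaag
H2-Ob, chr17:34238787-34238866, plus strand: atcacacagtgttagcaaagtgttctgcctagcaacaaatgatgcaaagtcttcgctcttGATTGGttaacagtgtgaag
H2-DMb2, chr17:34145098-34145177, plus strand: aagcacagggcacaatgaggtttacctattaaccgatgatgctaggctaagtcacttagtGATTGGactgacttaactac
The core starts 49, 60, 44, 58 and 91 bases before the annotated start of H2-Aa, H2-Eb1, H2-Oa, H2-Ob and H2-DMb2. On either strand of the 250 bases before the start, it was present in 10 of the 14 class II promoters in the table (71.4%), in 22.2% of the 11079 promoters of genes tested and in 16.6% of all 27025. The core overlaps the longer form CTGATTGG, which 4 of the 14 held (28.6%) against 6.39% of the promoters of genes tested. It was present in 16 of 67 promoters of genes that rose (23.9%) and in 14 of 32 promoters of genes that fell (43.8%). The core GTGAAAG of the Blimp1 binding motif was present in 3 of the 67 (4.48%) and in 1 of the 32 (3.13%), against 3.63% of the genes tested, and in none of the 5 windows above. A match is a description of letters and not evidence of binding.

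H2-Aa, the alpha chain of the antigen-presenting I-A molecule, stood at 397 and 234 CPM in WT and 2229 and 2815 CPM in Blimp1KO and rose by 2.999 ± 0.36 (adjusted p = 0.0320, edgeR). Both Blimp1KO libraries lay far above both WT libraries. H2-Eb1, the beta chain of I-E, rose from 360.4 and 227 CPM to 1419 and 1907 CPM, or 2.50 ± 0.32. The chains of H2-DM, which loads peptide, and of H2-O, which restrains H2-DM, rose with them. H2-DMb2 stood at 2.45 and 1.93 CPM against 21.3 and 51.4 CPM, a rise of 4.05 ± 0.63, which did not pass without Blimp1KO replicate 2. H2-DMa rose from 26.3 and 22.6 CPM to 65.2 and 95.7 CPM, or 1.72 ± 0.21. H2-Ob rose from 32.5 and 26.7 CPM to 133 and 204 CPM, or 2.51 ± 0.27. H2-Oa and the beta chain H2-Ab1, named here after their values were seen, rose by 4.93 and 1.98. In none of these genes did the Blimp1KO and WT libraries overlap.

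Ciita, the class II transactivator, stood at 7.48 and 2.83 CPM in WT and 24.3 and 19.8 CPM in Blimp1KO. Both Blimp1KO libraries were higher, but the WT libraries differed from each other by more than 2-fold, and the log2 fold change of 2.09 ± 0.97 had an adjusted p of 0.407. The invariant chain Cd74, already among the most abundant mRNAs of WT, stood at 5553 and 4888 CPM against 9211 and 12806 CPM with an adjusted p of 0.184. General factors of the class II machinery were kept: Rfxank, a subunit of the X box complex, at -0.04 (95% interval -0.44 to 0.36), and the protease Lgmn at 0.06 (-0.34 to 0.47). Per length, as CPM per kilobase ranked over 14816 genes outside the immunoglobulin loci, H2-Aa moved from rank 87 to rank 7, H2-Eb1 from 153 to 31 and Cd74 from 4 to 2. MHC class I presentation, in contrast, had no called member among 18 (1 at an unadjusted p below 0.05, 0 by DESeq2), and 14 of the 18 were kept. The median of the class I list was 0.17, but 0.48 without Blimp1KO replicate 1 and -0.11 without replicate 2. The class I transporter Tap2 stood at -0.07 (-0.46 to 0.32) and B2m, the light chain of class I, at -0.29 (-0.95 to 0.37).

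Surface receptors of lymphocytes formed the next group, in which 6 of 30 rose (0.577% of all genes), none fell and the median was 0.66. Ly86, the partner of the receptor RP105, rose from 13.97 and 14.7 CPM to 103 and 130.1 CPM, or 3.03 ± 0.41. Faim3, the Fc receptor for IgM, rose from 76.04 and 48.7 CPM to 393 and 581 CPM, or 2.97 ± 0.30. For the ligands seen by T cells, Cd80 stood at 3.17 and 3.70 CPM against 17.3 and 13.98 CPM (rise of 2.19 ± 0.23) and Pdcd1lg2, which encodes PD-L2, at 29.1 and 22.2 CPM against 96.3 and 94.7 CPM (rise of 1.90 ± 0.28, not passed without Blimp1KO replicate 2). Both libraries of Blimp1KO were above both of WT for each of them. The other called members, Cd40 and Btla, named after their values were seen, rose by 1.71 and 1.62. Kept members were the receptors Slamf6 at 0.06 (-0.41 to 0.54) and Tnfrsf18 at 0.19 (-0.28 to 0.65). Of the 30, 10 rose with the length trend removed.

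Among transcription factors of the B cell, Spib (Entrez 272382, chromosome 7, 44525995 to 44532087), an ETS factor of B cells, was the member that passed among 28, and the list median was 0.51 (0.26 without Blimp1KO replicate 1 and 0.77 without replicate 2). It stood at 5.78 and 7.22 CPM in WT and 157 and 197 CPM in Blimp1KO, a rise of 4.77 ± 0.62 with an adjusted p of 0.0326, and it moved from rank 7687 to rank 517 per length. Pax5, the factor that holds B cell identity, stood at 0.612 and 0.567 CPM in WT and 0.710 and 2.77 CPM in Blimp1KO, so the first Blimp1KO library lay close to the WT libraries. Id3, an inhibitor of E proteins named after its values were seen, stood at 0.408 and 0.420 CPM against 10.9 and 16.3 CPM, and its 5.03 had an adjusted p of 0.128. The factors Etv6 and Cux1 were kept, at 0.13 (-0.25 to 0.51) and -0.10 (-0.52 to 0.32). Ets1 and Foxp1 passed as well once the length trend was removed, at 1.22 and 0.83.

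B cell receptor signalling had 1 called member of 29, with a median of 0.47 (0.29 without Blimp1KO replicate 1 and 0.31 without WT replicate 2). Siglecg, an inhibitory lectin of the receptor complex, stood at 9.16 and 12.4 CPM against 29.9 and 32.2 CPM and rose by 1.53 ± 0.21, a call not passed without Blimp1KO replicate 2. The kinase Syk and the exchange factor Vav1, which act below the receptor, were kept at -0.01 (-0.42 to 0.41) and 0.11 (-0.19 to 0.42). With the length trend removed, 6 members rose, among them Cd79b, the receptor's beta signalling chain, at 0.85, while its partner Cd79a fell by 0.85 on the log2 scale.

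Sensing of nucleic acid and signals from other cells was represented by few called genes. None of 21 Toll-like receptor and innate sensor genes passed (5 at an unadjusted p below 0.05, 2 by DESeq2, list median 0.16), although the DNA sensor Tlr9 stood at 3.76 and 3.23 CPM in WT and 37.3 and 35.6 CPM in Blimp1KO, with 3.38 ± 0.67 and an adjusted p of 0.0791. Tlr2 was kept at -0.02 (-0.35 to 0.32). Of the 21, 1 rose and 1 fell with the length trend removed. Of 15 cytokine and chemokine ligands (median 1.26, and 0.71 without WT replicate 2), Ltb (Entrez 16994, chromosome 17, 35194507 to 35196305), which encodes the membrane anchor of lymphotoxin, passed. It stood at 27.2 and 30.8 CPM in WT against 338 and 527 CPM in Blimp1KO, a rise of 3.90 ± 0.34 with an adjusted p of 0.0173, and moved from rank 1317 to rank 72 per length. In the fit without the length trend, 3 of the 15 rose. No member of 30 among cytokine receptors and JAK-STAT genes passed (11 at an unadjusted p below 0.05, 7 by DESeq2), with Pim2 at 1.03 (adjusted p = 0.0627) and Il2rg at 0.83 (0.0918), while Il10rb and Stat5b were kept. In the fit without the length trend, 4 of the 30 rose.

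A few homing receptors and cytoskeletal genes of migrating cells rose. Of 18 homing and egress receptors, 2 rose and none fell, and the list median was 1.23. S1pr1, the sphingosine phosphate receptor of lymphocyte egress, rose from 3.49 and 5.63 CPM to 21.2 and 40.3 CPM, or 2.75 ± 0.41, a call not passed without Blimp1KO replicate 2. The chemokine receptors of follicles and T cell zones, named after their values were seen, did not pass: Cxcr5 stood at 0.522 and 0.588 CPM against 9.07 and 15.2 CPM (adjusted p = 0.0735) and Ccr7 at 1.61 and 0.966 CPM against 17.2 and 26.5 CPM (0.0901). With the length trend removed, 5 members rose, Cxcr5 among them, and the scavenger receptor Ackr3 fell. Adhesion molecules and integrins had no called member of 26 (9 at an unadjusted p below 0.05, 8 by DESeq2) and a median of 0.00478, with Itgb1 and Cd47 kept. The median was 0.23 without Blimp1KO replicate 1 and -0.20 without replicate 2, and with the length trend removed 4 members rose and 1 fell.

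In the cytoskeleton list, 3 of 33 rose and 17 were kept. Lsp1, an actin-binding protein of leukocytes, rose from 115 and 112 CPM to 415 and 525 CPM, or 2.05 ± 0.20. Vim, the intermediate filament vimentin, rose from 42.9 and 45.9 CPM to 127 and 186 CPM, or 1.82 ± 0.24. Coro1a, an actin regulator of leukocytes, rose from 111 and 125 CPM to 317 and 483 CPM, or 1.77 ± 0.25. The libraries of the 2 genotypes did not overlap in any of the 3. The GTPase Rac1 was kept at 0.02 (-0.40 to 0.44), as was the integrin activator Fermt3. Of the 33, 7 rose with the length trend removed.

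The rule for named genes took the 20 largest rises at an average log2 CPM of at least 3. Rarer genes with large rises are described only if they belong to a list, as H2-Oa and Zbtb32 do. Others of these 20 belong to no single list. Rdh12, a retinol dehydrogenase, stood at 3.97 and 3.49 CPM against 45.1 and 53.4 CPM and rose by 3.72 ± 0.23. Plac8 rose from 38.3 and 47.5 CPM to 356 and 698 CPM, or 3.62 ± 0.38. Pigr, the receptor that carries polymeric antibody across epithelia, rose from 3.27 and 3.02 CPM to 45.5 and 19.4 CPM, or 3.37 ± 0.43. Dnase1l3, a secreted nuclease, stood at 10.8 and 11.6 CPM in WT and 69.7 and 83.4 CPM in Blimp1KO, a rise of 2.77 ± 0.20. The adaptor Grap rose by 2.38 ± 0.18, the actin-linked adaptor Pstpip1 by 2.82 ± 0.28, the phospholipid-binding Anxa2 by 2.51 ± 0.38 and the secreted Fam3c by 2.36 ± 0.36. Marcksl1 and Map3k15 rose by 2.97 ± 0.47 and 3.37 ± 0.53. The rises of Marcksl1 and Fam3c did not pass without Blimp1KO replicate 2. Gimap3, a GTPase of lymphocyte survival, rose from 10.8 and 9.89 CPM to 73.8 and 91.5 CPM, or 2.99 ± 0.18. Gene symbols that start with Gimap were looked at after this value was seen. The 9 tested include the opposite-strand transcript Gimap1os. All 9 had both Blimp1KO libraries above both WT libraries (20.9% of all genes), with a median of 0.80, and 2 rose (0.577% of all genes).

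**Figure D3:**
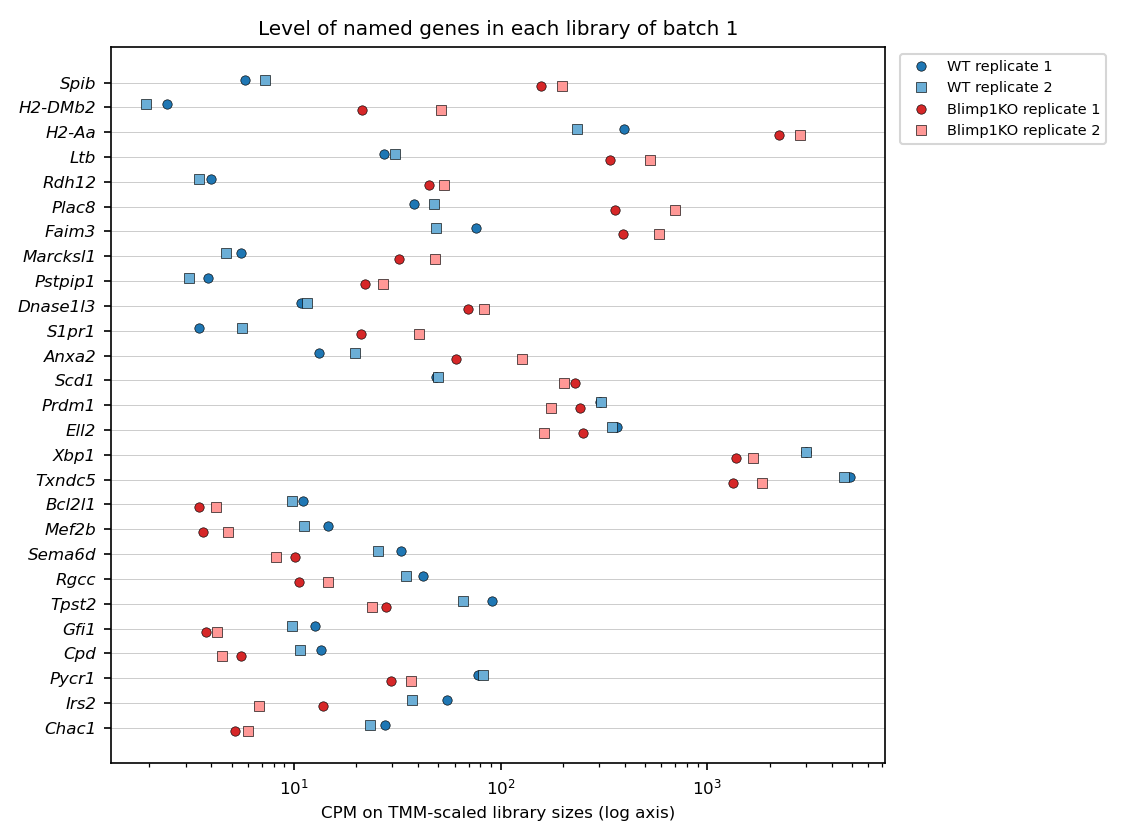
CPM on a log axis in each batch 1 library for genes named in the text, with 1 point per library. The points of Blimp1KO lie above those of WT for Spib, Ltb and H2-Aa, and below them for Chac1.

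Markers of other cells were measured beside these gains. Of 20 markers of mature B cells, 2 rose, Faim3 among them, and the median was 1.00, while with the length trend removed 6 rose and 1 fell. Their summed CPM was 1646 and 1598 in WT and 2777 and 3952 in Blimp1KO, and none was at 0 in any library. Cd22, an inhibitory coreceptor of B cells, stood at 6.94 and 7.14 CPM against 31.1 and 60.6 CPM. Ighd, the IgD heavy chain of naive B cells, was lower, at 29.7 and 12.6 CPM against 2.50 and 2.48 CPM. The 16 dendritic cell markers had no called member (4 at an unadjusted p below 0.05, 2 by DESeq2). Their median was 0.76 (0.41 without Blimp1KO replicate 1 and 0.28 without WT replicate 2), and none was at 0. Their summed CPM was 767 and 862 against 1132 and 1690, most of it from Ly6d, which is also among the 20 mature B cell markers. Ly6d stood at 433 and 521 CPM in WT against 758 and 1313 CPM in Blimp1KO. Flt3 stood at 3.42 and 3.63 CPM against 3.005 and 3.41 CPM and Itgax at 5.40 and 2.21 CPM against 18.3 and 15.9 CPM. Summed markers of neutrophils and monocytes were 400 and 493 CPM against 590 and 328 CPM, and those of T and NK cells 46.1 and 55.0 CPM against 49.3 and 78.6 CPM. The largest part of the neutrophil and monocyte sums was Lyz2, at 170 and 157 CPM against 345 and 109 CPM. None of 24 neutrophil and monocyte markers passed in edgeR, with 1 at an unadjusted p under 0.05 and 1 called by DESeq2, and none of 21 T and NK markers, with 2 and 0. Of erythroid and megakaryocyte markers none of 13 passed, with 0 at an unadjusted p under 0.05 and 0 by DESeq2, and the sums were 42.4 and 198 CPM against 41.7 and 183 CPM. Of 12 stromal and endothelial markers Alpl fell, and the sums were 108 and 331 CPM against 98.1 and 138 CPM. Vcam1 alone stood at 44.7 and 270 CPM against 24.8 and 82.8 CPM. Of 12 markers of B progenitors none passed (2 at an unadjusted p below 0.05, 2 by DESeq2), and the sums were 157 and 191 CPM against 91.5 and 83.3 CPM. Most of these sums was Cd93, at 118 and 149 CPM against 71.8 and 55.5 CPM. Of the 12 estimates, 8 were below 0 and 4 above. Rag1 overlapped between genotypes, at 1.81 and 4.20 CPM against 4.06 and 2.01 CPM. The part that such cells have in the gains was not tested.

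On the side of lower values, antibody genes came first. Of 13 immunoglobulin constant region and J chain genes, none passed edgeR's test (7 at an unadjusted p below 0.05, 7 by DESeq2). Their median was -1.01 (-0.22 on unscaled totals, against 0.78 over all genes). Of the 13, 12 had both Blimp1KO libraries below both WT libraries (22.1% of all genes). Ighm, the IgM heavy chain, took 19.3% and 9.73% of all assigned reads in WT and 3.805% and 2.40% in Blimp1KO. Ighg2b, an IgG heavy chain, took 3.28% and 6.34% against 8.94% and 5.44%, and Igha, the IgA heavy chain, 6.07% and 11.2% against 6.10% and 9.46%, and for both the libraries of the 2 genotypes overlapped. The J chain, which joins polymeric antibody, had overlapping shares, 6.32% and 6.27% against 5.79% and 6.504%. These are shares of all assigned reads, whereas the median and the 12 of 13 are on TMM-scaled CPM. On scaled CPM, Igha and the J chain were lower in both Blimp1KO libraries.

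Variable segments differed more from each other. Of 118 heavy chain V segments tested, 4 fell, none rose and 80 had both Blimp1KO libraries lower (22.1% of all genes), with a median of -1.38. The lowest fold change among the 4 was that of Ighv11-2 (chromosome 12, 114048241 to 114048704), which is used by antibodies of B-1 cells. It stood at 1834 and 2102 CPM in WT and 165 and 67.1 CPM in Blimp1KO, a log2 fold change of -4.08 ± 0.51. Its share of heavy V reads was 1.86% and 1.92% in WT and 0.394% and 0.208% in Blimp1KO, so it was lower in both Blimp1KO libraries within heavy V reads as well. Its neighbour Ighv11-1, with which it may share reads, fell by 3.04 on the log2 scale. Of 102 kappa V segments, none passed (33 at an unadjusted p below 0.05, 27 by DESeq2). Of these segments, 65 were lower in both Blimp1KO libraries (22.1% of all genes) and the median was -0.98. Near-identical V segments can share reads, and the share of an expanded clone was not tested.

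Transcription factors of the plasma cell moved in both directions, with 2 of 24 higher, 1 lower and a median of -0.39 (0.40 on unscaled totals). Without WT replicate 1 the median turned to 0.21, and without Blimp1KO replicate 2 it was -0.13. Mef2b, a MADS box factor, fell from 14.7 and 11.3 CPM to 3.62 and 4.83 CPM, or -1.62 ± 0.24. The 2 that rose were Zbtb32, a zinc finger repressor, from 0.680 and 0.651 CPM to 5.63 and 13.5 CPM (3.85 ± 0.59), and Aff3, a nuclear factor of lymphoid cells, from 3.67 and 5.86 CPM to 19.5 and 17.9 CPM (1.97 ± 0.25). The rise of Zbtb32 did not pass without Blimp1KO replicate 2. Ikzf1 and Ikzf3, the Ikaros factors of the lineage, were kept at 0.17 (-0.30 to 0.64) and 0.18 (-0.28 to 0.64). Irf4, a factor that plasma cells need to survive, named after its values were seen, stood at 451 and 491 CPM against 315 and 325 CPM, -0.56 ± 0.28.

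The surface and secreted signature of plasma cells had 27 of 32 estimates below 0 and 1 that fell, with a median of -0.47 (0.30 on unscaled totals). Capn5, a calpain, fell from 114 and 109 CPM to 55.1 and 52.8 CPM, or -1.05 ± 0.16, and did not pass without Blimp1KO replicate 2. Slpi, a secreted protease inhibitor and the third most abundant mRNA per length, stood at 3764 and 4106 CPM against 3384 and 4733 CPM, with overlapping libraries and an interval of -0.71 to 0.80. The membrane protein Tmem176b was kept, with an interval of -0.57 to 0.56. Of the 32, 3 fell with the length trend removed.

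Secretory genes had small estimates below the bulk of genes in most members of each list. Of 27 genes of ER-associated degradation, all had estimates below 0 and 23 had both Blimp1KO libraries lower (22.1% of all genes), but none passed (9 at an unadjusted p below 0.05, 3 by DESeq2), and the median was -0.43 (0.37 on unscaled totals). Edem1, a lectin that extracts misfolded glycoproteins, stood at 1379 and 1633 CPM against 624 and 819.9 CPM (adjusted p = 0.132), and the ubiquitin ligase Syvn1 at 332 and 299 CPM against 171 and 173 CPM (0.0943). The conjugating enzyme Ube2g2 was kept at -0.06 (-0.34 to 0.23). ER translocation had 24 of 25 estimates below 0 and a median of -0.36 (0.43 on unscaled totals), N-glycosylation 26 of 31 and -0.40 (0.39), ER to Golgi transport 41 of 47 and -0.33 (0.47), and the unfolded protein response 15 of 16 and -0.47 (0.34). None of these 4 lists had a called member, with 7, 12, 11 and 3 genes at an unadjusted p below 0.05 and 3, 4, 3 and 2 by DESeq2. The medians of degradation, translocation, N-glycosylation and transport were -0.25, -0.17, -0.20 and -0.21 without Blimp1KO replicate 1, and -0.41, -0.56, -0.60 and -0.35 without replicate 2. That of the unfolded protein response was -0.23 without Blimp1KO replicate 2 and -0.31 without WT replicate 1. In ER to Golgi transport, 37 of the 47 were kept all the same, such as the cargo receptor Tmed7 at 0.02 (-0.32 to 0.36). Eif2ak3, the ER stress sensor PERK, was kept at -0.02 (-0.50 to 0.45).

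Of 37 ER chaperones and folding enzymes, 1 rose, none fell and 23 were kept. The riser was Cnpy3, a chaperone of Toll-like receptors, from 30.1 and 24.9 CPM to 62.2 and 64.7 CPM, or 1.21 ± 0.17. Txndc5, a disulfide isomerase, was among the most abundant mRNAs of WT and stood at 4896 and 4592 CPM against 1329.8 and 1838 CPM. Its log2 fold change was -1.58 ± 0.29 with an adjusted p of 0.0670, and per length it moved from rank 6 to rank 49. With the length trend removed, Txndc5 passed at -1.57, as did Fkbp11, Creld2, Fkbp2 and Prdx4, named after their values were seen, so that 5 of 37 fell. In that fit, 3 genes of ER-associated degradation, 5 of N-glycosylation and 5 of ER to Golgi transport also fell, and no member of these 3 lists rose.

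Of 31 genes of the ATF4 response to amino acid shortage, 21 had both Blimp1KO libraries lower (22.1% of all genes). Their median was -0.57 (0.21 on unscaled totals), none rose and 2 fell. The promoter windows of both are shown because they hold the ATF4 element TGATGCAA, in capitals, which in Chac1 reads on the opposite strand.
Chac1, chr2:119351023-119351082, plus strand: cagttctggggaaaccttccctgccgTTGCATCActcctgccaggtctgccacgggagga
Pycr1, chr11:120643818-120643877, minus strand: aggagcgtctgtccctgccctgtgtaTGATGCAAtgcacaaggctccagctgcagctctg
The element starts 193 bases before the annotated start of Chac1 and 103 before that of Pycr1. It was present in 8 of the 26 promoters of this list (30.8%) and in 0.740% of the promoters of genes tested, in 2 of the 32 promoters of genes that fell (6.25%) and in 1 of the 67 promoters of genes that rose (1.49%), that of H2-Ob, whose window printed above holds it in lower case. Chac1 (Entrez 69065, chromosome 2, 119351242 to 119354326), which degrades glutathione, stood at 27.7 and 23.4 CPM in WT and 5.20 and 6.03 CPM in Blimp1KO, a log2 fold change of -2.18 ± 0.33, a call that did not pass without either of the Blimp1KO libraries. Pycr1, which makes proline, fell from 77.5 and 82.7 CPM to 29.5 and 37.1 CPM, or -1.27 ± 0.18. Atf4 itself stood at 139.9 and 136 CPM against 97.5 and 74.7 CPM with an adjusted p of 0.163. Kept members were Cebpg, with an interval of -0.47 to 0.46, and Atf5 at 0.05 (-0.60 to 0.70). In the fit without the length trend, 7 of the 31 fell, among them Psat1 and Phgdh of serine synthesis, named after their values were seen, at -1.08 and -0.91.

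All 18 amino acid transporters had estimates below 0, with a median of -0.63 (0.16 on unscaled totals), but none passed edgeR's test (11 at an unadjusted p below 0.05, 6 by DESeq2). Slc6a9, a glycine transporter, stood at 22.04 and 20.5 CPM against 10.7 and 10.2 CPM (adjusted p = 0.0533), and Slc7a3, a carrier of cationic amino acids, at 6.40 and 7.12 CPM against 2.12 and 2.98 CPM (0.0537). Slc3a2, the heavy chain CD98 of several carriers, named after its values were seen, stood at 2687 and 1385 CPM against 487 and 596 CPM, so that the WT libraries themselves lay far apart. These 3 and the glutamine carrier Slc1a5 fell once the length trend was removed. Slc38a1 and Slc38a9 were kept at -0.01 (-0.43 to 0.41) and -0.10 (-0.47 to 0.26). In the mTORC1 list, 1 of 37 fell and 26 were kept: Irs2, the insulin receptor substrate, went from 54.97 and 37.1 CPM to 13.8 and 6.81 CPM, or -2.16 ± 0.35.

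Several single genes of survival, signalling and protein modification were among the 20 largest falls at an average log2 CPM of at least 3. Bcl2l1 (Entrez 12048, chromosome 2, 152758732 to 152833803), the gene of the anti-apoptotic protein Bcl-xL, fell from 11.1 and 9.77 CPM to 3.50 and 4.23 CPM, or -1.43 ± 0.18, while 20 of the 32 genes of its list were kept, among them the caspase Casp9 at 0.13 (-0.18 to 0.44). Tpst2, a Golgi enzyme that sulfates tyrosines, fell from 90.8 and 66.02 CPM to 28.1 and 23.9 CPM, or -1.59 ± 0.21. Sema6d, a semaphorin, fell from 32.9 and 25.7 CPM to 10.1 and 8.16 CPM, or -1.68 ± 0.18. Gadd45b, a stress protein, fell from 24.9 and 22.1 CPM to 5.85 and 7.70 CPM, or -1.79 ± 0.17. Hsd11b1, which activates glucocorticoids, fell with a log2 fold change of -1.87 ± 0.30, the alkaline phosphatase Alpl with -1.61 ± 0.13, Thbd (thrombomodulin) with -1.78 ± 0.22 and the cell cycle regulator Rgcc with -1.61 ± 0.19. The repressor Gfi1, the GTPase Nuggc and the Golgi carboxypeptidase Cpd fell with -1.48 ± 0.21, -1.30 ± 0.21 and -1.27 ± 0.18. These 3 and Tpst2 did not pass without Blimp1KO replicate 2, and Cpd also did not pass with the length trend removed. Clec2g, Lrrn3, Aspm and Fads3 fell with -1.85 ± 0.20, -1.75 ± 0.24, -1.35 ± 0.20 and -1.32 ± 0.21. Without Blimp1KO replicate 2 Lrrn3 did not pass, and without replicate 1 Fads3 did not. Hist1h1c, a linker histone, fell from 68.5 and 38.4 CPM to 12.6 and 14.2 CPM, or -1.99 ± 0.26, and did not pass without Blimp1KO replicate 2.

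**Figure D4:**
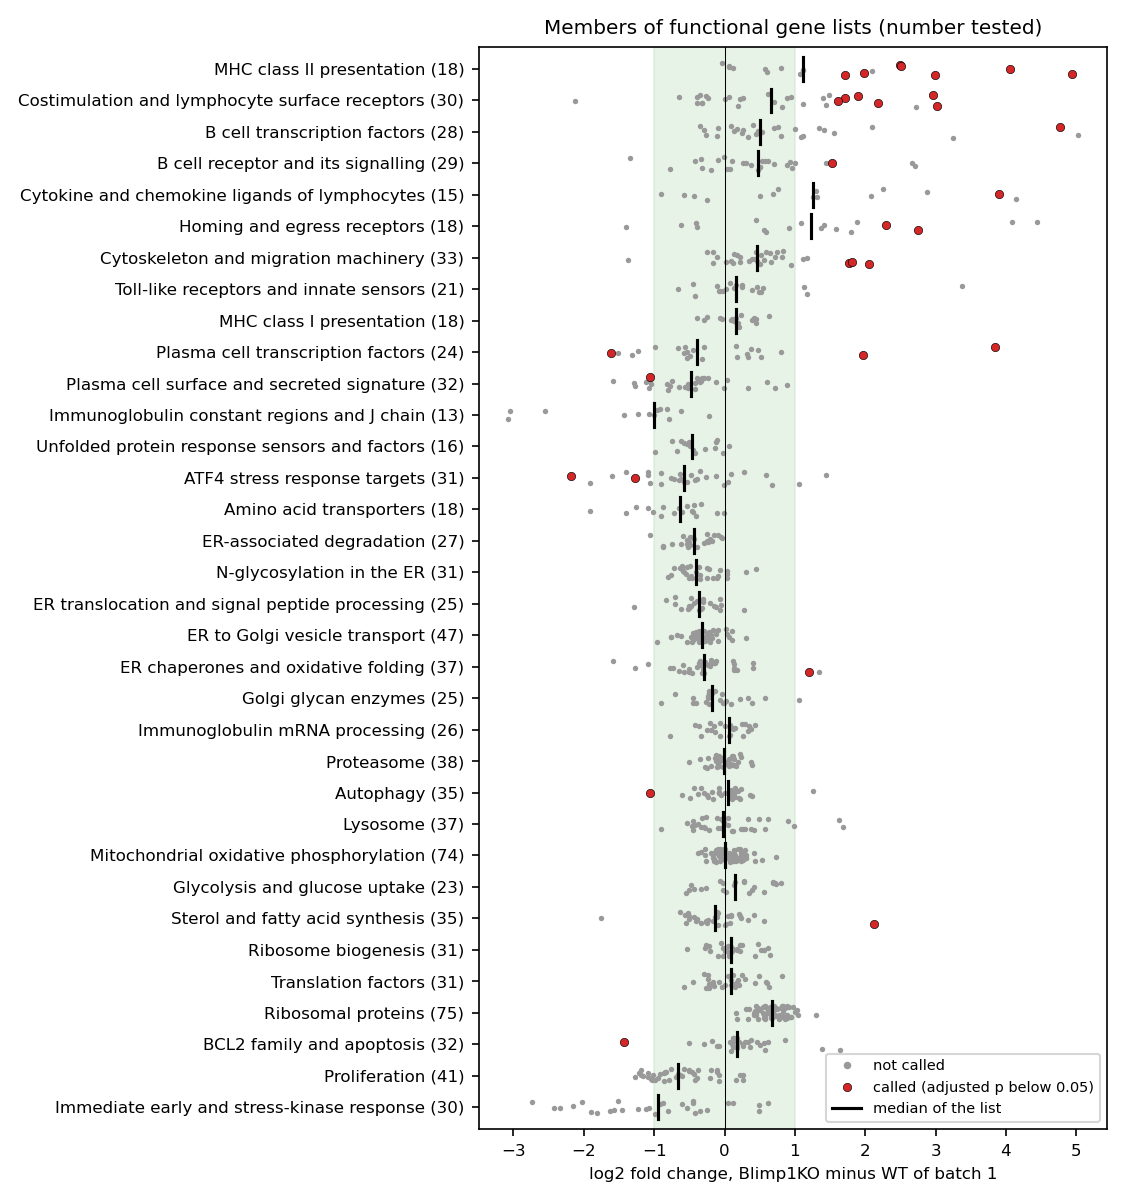
Log2 fold change of Blimp1KO against WT of batch 1 for each member of the gene lists, with the list median as a bar, called members in red and the range within 2-fold shaded. The class II list has a median of 1.12 and the proteasome list one of -0.01. On unscaled totals fold changes shift up by a median of 0.79 and the medians of the secretory lists then lie above 0.

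Several lists of general cell upkeep had most of their members kept. In the proteasome, 37 of 38 genes were kept and none passed (1 at an unadjusted p below 0.05, 0 by DESeq2), against 46.6% kept over all genes and 73.3% over abundant genes. Its median was 0.28 without Blimp1KO replicate 1 and -0.20 without replicate 2. Psmc1, an ATPase of the regulatory particle, stood at 42.4 and 43.9 CPM against 41.7 and 47.8 CPM, or 0.05 (-0.28 to 0.39). In oxidative phosphorylation, 60 of 74 genes were kept, none passed (0 at an unadjusted p below 0.05, 0 by DESeq2) and the median was 0.01, with the complex III subunit Uqcrc2 at -0.05 (-0.43 to 0.32). Its median was 0.44 without Blimp1KO replicate 1 and -0.43 without replicate 2, and 69 were kept with the length trend removed. In autophagy, 31 of 35 were kept, such as Becn1 at -0.07 (-0.37 to 0.23) and Atg7 at -0.08 (-0.42 to 0.25). The called member was Wipi1, a phosphoinositide-binding protein of forming autophagosomes, which fell from 63.3 and 57.8 CPM to 31.97 and 26.1 CPM, or -1.06 ± 0.15.

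In the processing of immunoglobulin mRNA, 21 of 26 genes were kept and none passed (2 at an unadjusted p below 0.05, 0 by DESeq2). Kept were Cstf2 and U2af2, factors of polyadenylation and splicing, with intervals of -0.36 to 0.36 and -0.23 to 0.38. Ell2, the elongation factor that favours the secreted form of heavy chains, stood at 364 and 346 CPM against 251 and 163 CPM, -0.78 ± 0.28 with an adjusted p of 0.276. Glycolysis had 13 of 23 genes kept and none called (6 at an unadjusted p below 0.05, 1 by DESeq2), with the hexokinase Hk1 at 0.02 (-0.27 to 0.31). Sterol and fatty acid synthesis had 25 of 35 kept, among them the regulator Srebf2 at 0.09 (-0.25 to 0.43). In that list Scd1, the stearoyl-CoA desaturase, rose from 48.6 and 50.1 CPM to 228 and 202 CPM, or 2.13 ± 0.24. Ribosome biogenesis and translation factors had 24 of 31 and 23 of 31 kept, lysosomal genes 26 of 37 and chromatin regulators 21 of 34. None of these 4 lists had a called member, with 3, 3, 10 and 6 genes at an unadjusted p below 0.05 and 1, 1, 5 and 2 by DESeq2. Over all genes 46.6% were kept, and over abundant genes 73.3%. The kept counts from glycolysis onward were not read as particular to those lists. Once the length trend was removed, 1 lysosomal gene rose and 1 fell, and 2 chromatin regulators rose and 1 fell. Of 25 genes of the NF-kB pathway and of 32 interferon-stimulated genes, 1 each rose: the kinase Ikbke by 1.25 ± 0.18 and the GTPase Gbp2 by 1.23 ± 0.18. In the fit without the length trend, 3 genes of the NF-kB list rose.

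As in several lists above, the size of the median depended on single libraries in 3 more. All 75 ribosomal protein genes had estimates above 0 with a median of 0.68, but none passed (30 at an unadjusted p below 0.05, 5 by DESeq2), and the median was 0.13 without Blimp1KO replicate 2 and 1.10 without replicate 1. Their share of reads outside immunoglobulin genes was 1.98% and 1.93% in WT and 2.11% and 3.72% in Blimp1KO, so the second Blimp1KO library alone was far above WT. Ribosomal protein mRNAs are short, and with the length trend removed the median was 0.49, 5 rose and 46 were kept. The immediate early genes, which respond within minutes to handling or stimulation, took 1.95% and 0.511% of these reads in WT and 0.749% and 0.243% in Blimp1KO. None of the 30 genes of this list passed in edgeR, with 3 at an unadjusted p under 0.05 and 1 called by DESeq2. Fos, named after its values were seen, stood at 2057 and 545 CPM in WT and 783 and 96.6 CPM in Blimp1KO, and the libraries of the 2 genotypes overlapped. The list median was -0.95 (-0.12 on unscaled totals), -2.48 without Blimp1KO replicate 1, -0.38 without replicate 2 and -1.59 without WT replicate 2. Without WT replicate 1 it turned to 0.37. Proliferation genes had 37 of 41 estimates below 0 and a median of -0.67 (0.09 on unscaled totals). The median was -0.37 and -0.81 without Blimp1KO replicates 1 and 2 and -1.02 and -0.33 without WT replicates 1 and 2, below 0 in each. None was called (15 at an unadjusted p below 0.05, 2 by DESeq2). Top2a, the topoisomerase of dividing cells, stood at 24.2 and 36.3 CPM against 14.4 and 14.1 CPM (adjusted p = 0.117), and the replication factor Mcm6 was kept at -0.11 (-0.48 to 0.26).

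The effect of Blimp1 was set beside that of Xbp1, measured in batch 2 with WT libraries of its own. The difference of the 2 effects passed edgeR's test for 253 of 15073 genes (1.68%). It passed for 46 of the 130 genes called here, of which 34 had risen and 12 had fallen, a description since these genes were chosen by 1 of the 2 effects. The Xbp1KO effect itself passed for 36 of the 130, against 1160 of all genes tested (7.70%). Of the 36, 25 had the same sign in both knockouts and 11 the opposite sign. H2-Aa was 2.999 in Blimp1KO and -0.02 in Xbp1KO (adjusted p of the difference 0.0376), Ltb was 3.90 against -0.98 (0.0102) and Rdh12 3.72 against -0.22 (0.00523). Bcl2l1 was -1.43 against 1.32 (0.00943), Alpl -1.61 against 1.38 (0.00288) and Slc7a3 -1.40 against 3.65 (0.00331), so these were lower in Blimp1KO and higher in Xbp1KO by estimate. Similar estimates were found for Sema6d, -1.68 against -1.77, and for Siglecg, 1.53 against 1.51, with no difference passing (0.915 and 0.996). Each effect was taken against WT of its own batch. Whether a difference comes from genotype or from a batch-dependent effect cannot be told, since each knockout has 1 batch label.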

How the data were processed

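Per the labels' protocols, the RNeasy Micro kit was used for RNA and TruSeq RNA for the libraries. Subread, featureCounts and limma, and the builds GRCm38 and mm10, are named in the submitters' processing notes, while versions, read length and strand setting are not given in the sources used here. The authors deposited raw counts of reads for each Entrez gene, per the file headers. They also deposited log2 FPKM of 13945 genes in a file per sample, per the file headers, and these served as an alternative.

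Symbols came from the deposited files or RefSeq (GRCm38.p6), and 1599 of 27179 genes had none. Genes were filtered with filterByExpr (minimum count 10) and fitted in R 4.3.3 with edgeR 4.0.16: all 8 libraries, 1 mean for each genotype and batch, 4 residual degrees of freedom. DESeq2 1.42.0 and limma 3.58.1 were alternatives. The fit was tested on simulated data of Blimp1KO against WT that carried the length trend of the real libraries, with 14651 genes: 12.0% of genes changed by 1 on the log2 scale were called and 88.0% of those changed by 2, against 0.0484% of unchanged genes. Without that trend, over 14668 genes, the shares were 20.0%, 92.0% and 0.118%. The changed genes were 50 per size, drawn only from genes at an average log2 CPM of at least 3. The unchanged genes were of any level, so the detection shares do not cover rarer genes.

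Members and lists (49 lists, 1410 of 1413 entries matched) were chosen with earlier results of these data known. The rule named 4 markers (Spib, Ltb, H2-Aa, Ciita), Sdc1, Prdm1 and Xbp1. It added the 20 highest and 20 lowest called genes at an average log2 CPM of at least 3 without overlap, leaving out predicted genes, pseudogenes and immunoglobulin segments. From each list it took up to 4 called members, otherwise the 2 with the smallest p, and 2 kept members, and last the 10 most abundant genes of WT; a few genes so chosen are not reported here. Benjamini-Hochberg adjustment ran over all 15073 genes. Promoters are RefSeq's 250 bases before the start.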

Additional observations from a re-analysis of the deposited data

How the results depend on the processing

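The 130 called genes became 813 with DESeq2, 517 with no filter on low counts (of 23678 genes), 269 with the WT of both batches pooled, 196 with robust estimation, 83 with limma-voom and 20 with batch 1 alone, with or without immunoglobulin genes. All 20 rose, none fell, and 10 of the 20 were among the 130. Totals without a scaling factor gave 5895, of which 111 were among the 130. Leaving out 1 library gave 0 to 688 calls. All 130 kept their sign under every alternative in which they were tested. List medians carry no test, and some changed sign when 1 library was left out. Without WT replicate 1, for example, that of immediate early genes was 0.37 and that of plasma cell transcription factors 0.21. On unscaled totals the medians of the secretory lists lay above 0.

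Removing the length trend, chosen after seeing the data, gave 548 calls. Leaving out 1 library on top of that gave 7 and 8 calls without WT replicates 1 and 2, 192 and 208 without WT replicates 3 and 4, 818 and 218 without Blimp1KO replicates 1 and 2, and 462 and 512 without either Xbp1KO library.

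Of the 56 named genes that were called, 8 passed with batch 1 alone and 9 with immunoglobulin genes also removed. The range was 0 to 54 when 1 library was left out. With the length trend removed as well, 6 and 7 passed without WT replicates 1 and 2 and 37 without Blimp1KO replicate 2.

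The 37 called list members became 161 with DESeq2, 103 with no filter, 60 with pooled WT, 7 with batch 1 alone, 8 with immunoglobulin genes also removed, 662 on unscaled totals and 119 with the length trend removed. Leaving out 1 library gave 0 to 125. With the length trend removed as well, 3 and 4 were called without WT replicates 1 and 2, 133 and 56 without Blimp1KO replicates 1 and 2, and 97 and 108 without either Xbp1KO library.

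The 7028 kept genes became 12889 with no filter and 1624 on unscaled totals, and 5027 to 7139 when 1 library was left out. The difference in immunoglobulin share was -18.7 points without the J chain and -20.3 to -17.3 points when 1 library was left out. The difference of the 2 knockout effects was computed in 1 fit. Fits that leave out 1 library have fewer samples, and the filter then passed 16066 to 16266 genes where a WT library was left out. Other causes were not tested.

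With a replicate block for the number shared in the labels, 89 genes, 38 named genes, 26 list members and 7072 kept genes were counted in place of 130, 56, 37 and 7028, and 77 of the 89 were among the 130. The deviations of same-numbered libraries correlated at 0.148 over 7297 genes, but with 2 pairs the libraries share only a number.

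Every batch 1 library held at least 69235049 assigned reads. The comparison holds 2 libraries per genotype, and the Blimp1KO pair differs by gene length. Genotype was compared within 1 batch, and the unstated deletion leaves Prdm1 unable to check the labels.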
